A study of Mus musculus with 12 samples.

Results

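Transcripts of 9 ligands of the tumour necrosis factor (TNF) superfamily were followed across 12 RNA-sequencing libraries of mouse T cells: Fasl, Cd40lg, Tnf, Lta, Ltb, Tnfsf8, Tnfsf10, Tnfsf11 and Tnfsf14. These are 9 of the 25793 genes in the deposited count table, and 9 further ligands of the superfamily served as a list for comparison. The members were named with earlier results of these libraries in view. Fasl was selected on its difference between the genotypes and on its level in 1 library, so those values are a description and carry no test.

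The cells were CXCR5hi GFP+ CD4+ OT-II T cells of the C57BL/6 strain, either Pdcd1+/+ (WT) or Pdcd1 KI/KI (KI). OT-II cells carry a transgenic T cell receptor for an ovalbumin peptide. All cells had been transduced with GFP, and 500000 sorted GFP+ cells per mouse were given to B6 recipients with 500000 dsRed-expressing MD4 B cells, whose transgenic receptor binds hen egg lysozyme. The labels mention no depletion of the recipients' own lymphocytes. Immunization was under the skin with HEL-OVA, and the treatment label adds LPS and alum. Lymph node cells were sorted on day 5 in both groups, and 100 to 200 cells went into each lysis. The labels do not say what the KI allele changes, nor how many mice were pooled. Pdcd1 encodes PD-1, an inhibitory receptor, and the study compared WT with KI follicular helper T (Tfh) cells. There were 6 WT and 6 KI libraries. Each title carries a first number (1 or 2) and a second number (1 to 3) whose meaning is not given, and libraries are named here by both, as in WT 1-3. Each genotype had 3 libraries at each first number. Nothing says that the libraries come from separate animals, so p-values measure the spread between these libraries, which may be technical.

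TNF superfamily ligands are mostly membrane proteins of activated lymphocytes that bind as trimers to receptors on neighbouring cells, and some are also released. Receptors with a death domain, such as Fas, the receptor of the Fas ligand encoded by Fasl, can start apoptosis through FADD and caspase-8, whereas others signal through TRAF adaptors to NF-kappaB. In follicles, CD40 ligand (Cd40lg) on Tfh cells is the central signal for B cell survival and selection, and Fas is known to restrain germinal centre B cells. The lymphotoxins (Lta, Ltb) maintain lymphoid tissue architecture.

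The libraries held 717506 to 1801504 gene counts, with WT 1-3 the smallest. In WT 1-3, 46.1% of reads were assigned to genes and 43.8% aligned to several places, the lowest and the highest share of the 12. Pdcd1 ran from 166 to 523 CPM (counts scaled to a common library total) in WT and from 21.5 to 130 CPM in KI, without overlap. All 7 T cell markers and all 10 Tfh markers were detected, with summed levels of 5099 to 6965 CPM and 1972 to 3220 CPM. The 8 B cell markers in the table summed to 113 to 309 CPM, with Pax5 at 0 in every library, and the 7 stromal and endothelial markers to 25.1 to 77.6 CPM, with 4 of them at 0. WT 1-3 stood apart in Fasl, in alignment and in myeloid markers, so the Fasl values are given with and without it.

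The genes of the 9 ligands lie on 6 chromosomes. In build NCBIM37 (mm9) with GENCODE vM1, Fasl occupies chr1:163710820-163718626 on the minus strand, in 4 exon blocks, next to Tnfsf18 and Tnfsf4. Ltb (chr17:35331384-35333265), Tnf (chr17:35336326-35338952) and Lta (chr17:35340110-35342296) are neighbours within the major histocompatibility complex, with gaps of 3060 and 1157 bases and 0 protein-coding genes between them. Tnfsf14 lies on the same chromosome (chr17:57328915-57333612), beside Cd70 and Tnfsf9. The others are Cd40lg (chrX:54465320-54477219), Tnfsf8 (chr4:63492342-63522381), Tnfsf10 (chr3:27215950-27241349) and Tnfsf11 (chr14:78677252-78707850). In this annotation no gene on either strand overlaps any of the 9. The annotation the authors counted with was not given in the sources used here.

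Promoter sequence is shown for Fasl and Tnfsf11, the members with the widest spread and the clearest difference between first numbers. Each run is the 250 bases before the gene's start in RefSeq (table of build GRCm38.p6), which matched NCBIM37 exactly and once. Capitals mark GGAAA on either strand, the core bound by NFAT factors, which drive many cytokine genes and Fasl downstream of the T cell receptor. The Fasl run is chr1:163718627-163718876 and the Tnfsf11 run is chr14:78707851-78708100, both on the minus strand and written 5′ to 3′.
Fasl: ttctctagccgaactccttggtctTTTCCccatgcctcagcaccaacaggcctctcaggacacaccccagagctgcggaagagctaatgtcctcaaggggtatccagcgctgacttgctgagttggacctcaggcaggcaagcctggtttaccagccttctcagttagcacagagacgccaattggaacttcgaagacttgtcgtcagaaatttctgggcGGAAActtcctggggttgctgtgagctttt
Tnfsf11: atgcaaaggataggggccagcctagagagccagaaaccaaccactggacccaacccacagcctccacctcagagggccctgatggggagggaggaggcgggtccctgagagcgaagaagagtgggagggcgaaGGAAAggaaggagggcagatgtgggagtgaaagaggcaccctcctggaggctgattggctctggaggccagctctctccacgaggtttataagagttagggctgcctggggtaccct
The Fasl run holds 2 such matches, beginning 226 and 30 bases before the start, and the Tnfsf11 run 1, beginning 117 bases before it. A promoter was found in that table for 8 of the 9 members, and all 8 held GGAAA, which 55.7% of 32536 promoters of this length hold. TATAAA, the letters of a TATA box, occurred on the opposite strand 32 bases before the start of Tnfsf11, and on the gene's own strand 29 bases before Tnf and 167 before Lta. On either strand, 12.3% of all promoters hold it. On both strands, GNGGGNG, an EGR core, was in 5 of the 8 (60.5% of all). TGANTCA (AP-1) was in Tnfsf14 alone (6.73% of all), TAAACA (forkhead) in Ltb alone (12.02% of all), and GGGANTTCC (NF-kappaB) in 0 of the 8 (1.44% of all). These matches are letters in a window, and no binding was measured.

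Levels of different ligands were compared on the authors' FPKM scale, which divides by transcript length and depth. Ltb, the membrane-anchoring lymphotoxin subunit, had the highest FPKM level, 276 ± 60.9 FPKM (SD, n = 12), with a median of 268 FPKM at the 97.6th percentile of 11002 genes whose median was above 0. Ltb exceeded the next ligand by median, Cd40lg, in 12 of 12 libraries. Cd40lg had a median of 27.1 FPKM (range 16.5 to 41.4 FPKM), and Lta, which forms soluble trimers or joins Ltb, a median of 17.8 FPKM (8.05 to 33.7 FPKM). Tnfsf8, the CD30 ligand, had a median of 13.5 FPKM (7.62 to 52.0 FPKM), and Fasl one of 11.3 FPKM (0.267 to 344 FPKM). Neighbours in this middle group changed places between libraries. Cd40lg was above Lta in 9 of 12 libraries, Lta above Tnfsf8 in 7, and Tnfsf8 above Fasl in 9. Tnfsf11, the RANK ligand, had a median of 4.48 FPKM (0.711 to 18.5 FPKM). Tnfsf14 (LIGHT), Tnf and Tnfsf10 (TRAIL) had medians of 1.25, 0.947 and 0.803 FPKM and were not separated from each other, since Tnfsf14 was above Tnf in 8 libraries and Tnf above Tnfsf10 in 7.

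**Figure D1:**
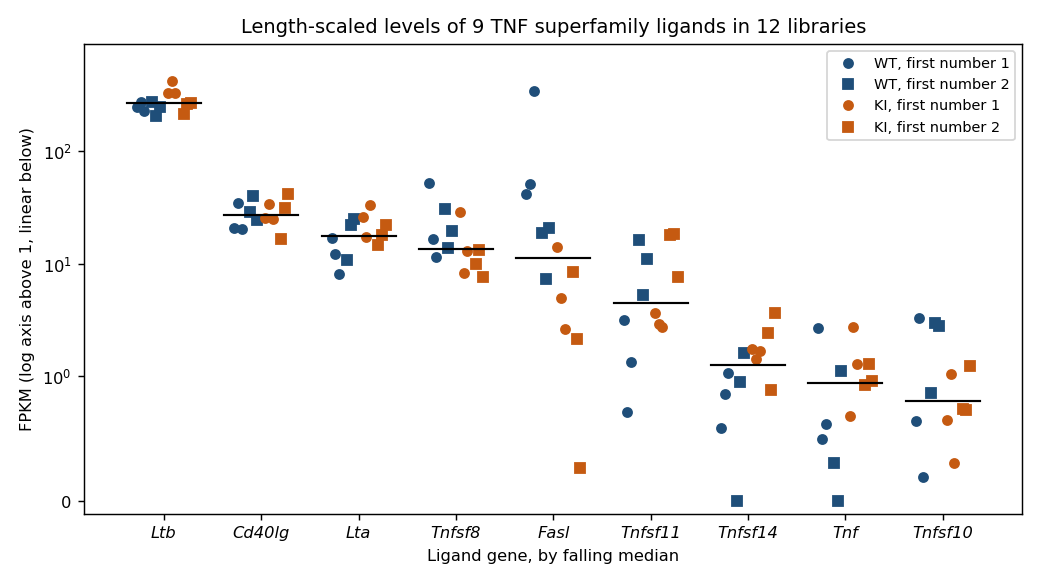
Deposited FPKM of the 9 ligand genes (vertical axis, log above 1 and linear below) in 12 libraries, with 1 point per library, coloured by genotype and shaped by first title number, and a bar at the median. Ltb lies above the others except in 1 library, WT 1-3, where Fasl reached 344 FPKM.

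Fasl had the widest range on this scale. By mean FPKM it ranked 2nd of the 9 ligands, at 43.0 ± 96.1 FPKM (SD, n = 12), and by median it ranked 5th. WT 1-3 was the only library in which Fasl was the top ligand, with 1.52 times the FPKM of Ltb, against at most 0.186 times in the other 11 libraries. In WT 1-3, Fasl took 0.0932% of gene counts and ranked 135th of all genes by count, and elsewhere its best rank was 964th. In KI 2-3 it was the lowest of the 9.

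Fasl was lower in KI than in WT, most clearly among libraries with first number 1. In TMM-scaled CPM, its level in WT was 103, 146 and 1197 CPM in libraries 1-1, 1-2 and 1-3, and 46.4, 18.0 and 51.3 CPM in libraries 2-1, 2-2 and 2-3. In KI it was 33.0, 13.6 and 6.87 CPM in 1-1, 1-2 and 1-3, and 27.4, 4.87 and 0.692 CPM in 2-1, 2-2 and 2-3. WT 1-3 was 8.19 times the next WT library, and the lowest value, in KI 2-3, rested on 1 read. WT 1-3 had 669 reads (95% Wilson interval 864 to 1006 CPM of unscaled gene counts) and WT 1-2 had 124 reads (110 to 157 CPM). Such intervals take each read as an independent molecule, which amplified reads are not. They are thus too narrow to say how much of the gap is counting error. At first number 1 all 3 WT libraries lay above all 3 KI libraries, whereas at first number 2 the genotypes overlapped, with WT higher in 8 of 9 pairs. In bulk libraries, fewer cells with Fasl and less Fasl RNA per cell cannot be told apart.

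The WT libraries averaged 260 ± 461 CPM of Fasl and the KI libraries 14.4 ± 13.1 CPM (SD, n = 6 for both), a ratio of 18.1. Without WT 1-3 the WT mean was 73.1 ± 51.2 CPM (SD, n = 5) and the ratio was 5.07. The medians, 77.3 CPM in WT and 10.3 CPM in KI, gave a ratio of 7.54. WT exceeded KI in 34 of 36 pairs of libraries, and in 28 of 30 pairs without WT 1-3. The fitted log2 difference, KI minus WT, was -4.19 (SE 0.90) with all libraries and -2.35 (SE 0.63) without WT 1-3. It was -4.73 at first number 1, -2.78 there without WT 1-3, and -1.94 at first number 2. Leaving out any other single library gave -4.68 to -3.93. WT 1-3 moved the size of the difference more than any other library did, and the sign was negative in each of these fits. Since Fasl was selected on this contrast, the sign is no independent evidence.

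**Figure D2:**
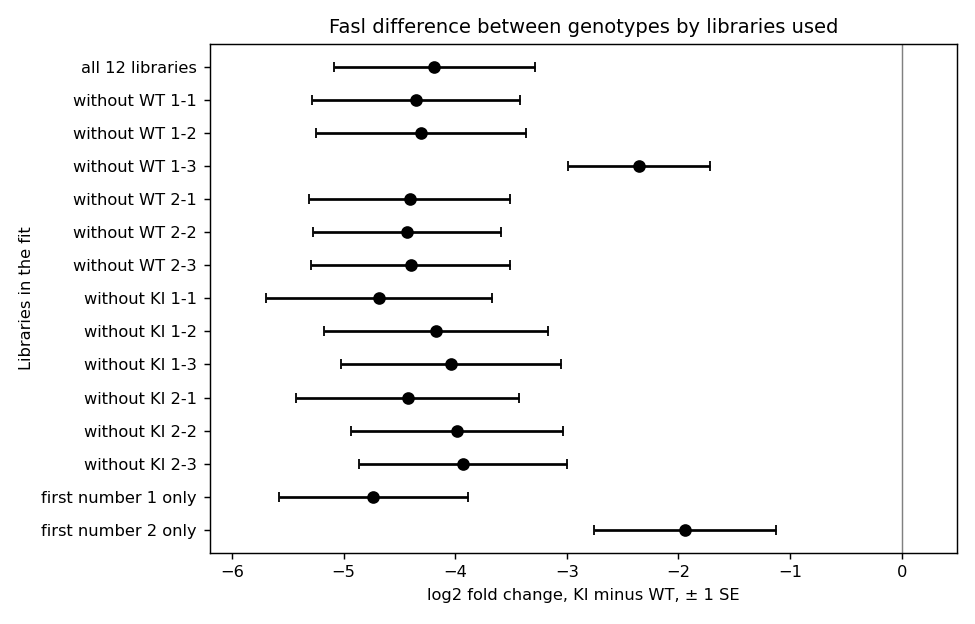
Fitted log2 difference of Fasl, KI minus WT (horizontal axis, point, with bars of 1 SE), for all 12 libraries, with each library left out, and within each first title number. The fit without WT 1-3 (-2.35) and the fit at first number 2 (-1.94) lie nearer to 0 than the fits that hold WT 1-3.

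Fasl also varied more between like libraries than genes of similar abundance. Within genotype and first number, the SD of log2 CPM was 1.49 for Fasl, against a median of 0.46 over 2777 genes whose mean count was within 2-fold of its own, and 99.6% of them had a smaller SD. WT 1-3 was part of why Fasl was selected, so this too is a description. Without WT 1-3 the SD of Fasl was 1.23, the median of 3690 genes of similar mean count was 0.59, and 97.6% of them had a smaller SD. With all libraries, the SD of the other tested members was near that of their peers. It was 0.22 for Ltb (peer median 0.26), 0.39 for Cd40lg (0.52), 0.41 for Lta (0.61), 0.62 for Tnfsf11 (0.70) and 0.65 for Tnfsf8 (0.50).

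Markers of cytotoxic T and NK cells, which are known to express Fasl, were examined as a list of 14 genes. Their summed level was 86.1 to 362 CPM in WT and 118 to 144 CPM in KI at first number 1. At first number 2 it was 701 to 982 CPM in WT and 296 to 530 CPM in KI. WT 1-3 was the highest of the 6 libraries with first number 1, at 362 CPM, and 6th of all 12. Fasl was lower at first number 2 in WT, where these markers were higher. Ncr1 was at 0 in every library, Gzma and Klrg1 had counts in 1 library, Klrd1 and Klrk1 in 3, Gzmb in 4 and Cd8a in 7. Prf1 had counts in 10 libraries, Gzmk and Ctsw in 11, and Cd8b1, Ccl5, Nkg7 and Eomes in all 12. Nkg7 (37.7 to 401 CPM) and Eomes (0.620 to 220 CPM) made up much of the sum, and Gzmk reached 261 CPM. A gene was called where its Benjamini-Hochberg adjusted p in edgeR's quasi-likelihood test over all genes was under 0.05. Of the 14 markers 6 were tested and 0 were called by genotype, with a median log2 difference of -1.36 in KI against 0.02 over all tested genes. All 6 were lower in KI, as Fasl was. Eomes (-1.85) and Ctsw (-1.63) had unadjusted p of 0.0202 and 0.0283 in edgeR, and the other 4 were above 0.05. The 11 myeloid markers summed to 226 CPM in WT 1-3, the highest of the 12, and to 1.69 to 62.3 CPM elsewhere. That sum came from Csf1r (111 CPM) and Lyz2 (100 CPM), and Cd14, Itgax and S100a8 were at 0 in all libraries. Of the 8 B cell markers, 5 were tested and 0 called by genotype, with a median log2 difference of -1.32. Ms4a1 (CD20) was at -2.04, Cd79b at -1.36 and Cd79a at -1.32, with unadjusted p of 0.000775, 0.00631 and 0.0245 in edgeR, all lower in KI as Fasl was, while Cd22 was at 0.55. The summed B cell level was 138 to 182 CPM in WT and 113 to 224 CPM in KI at first number 1, and 201 to 309 CPM in WT and 174 to 222 CPM in KI at first number 2. Cd22 made up a mean of 123 CPM of that sum. The part of these cells in the Fasl values was not tested.

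By the rule for genes most like Fasl, the Pearson correlation of log2 CPM was taken over 12 libraries after subtracting first-number means. LOC100503489 had r = 0.92, an entry written 2-Sep r = 0.92, Atrx (a chromatin remodeller) r = 0.91, Ikzf1 (a lymphoid transcription factor) r = 0.91, and Skil (a repressor of SMAD signalling) r = 0.90. Without WT 1-3 the values were 0.88, 0.92, 0.90, 0.88 and 0.83, and only 2-Sep stayed among the 5 highest. The symbol 2-Sep has the form of a calendar date, so its gene is uncertain. It read 494 CPM in WT 1-3 and at most 140 CPM elsewhere. These are the highest correlations among all tested genes over few libraries, whose values share library and depth, and they describe the pattern alone. Among the ligands, Fasl correlated with Tnfsf8 at r = 0.47 (0.76 without WT 1-3) and with Lta at r = -0.68 (-0.53 without it). Genotype means were not subtracted, so each r here also holds the difference between genotypes on which Fasl was selected. Tnfsf8 was lower in KI, as Fasl was, and Lta was higher (log2 differences -0.85 and 0.44).

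**Figure D3:**
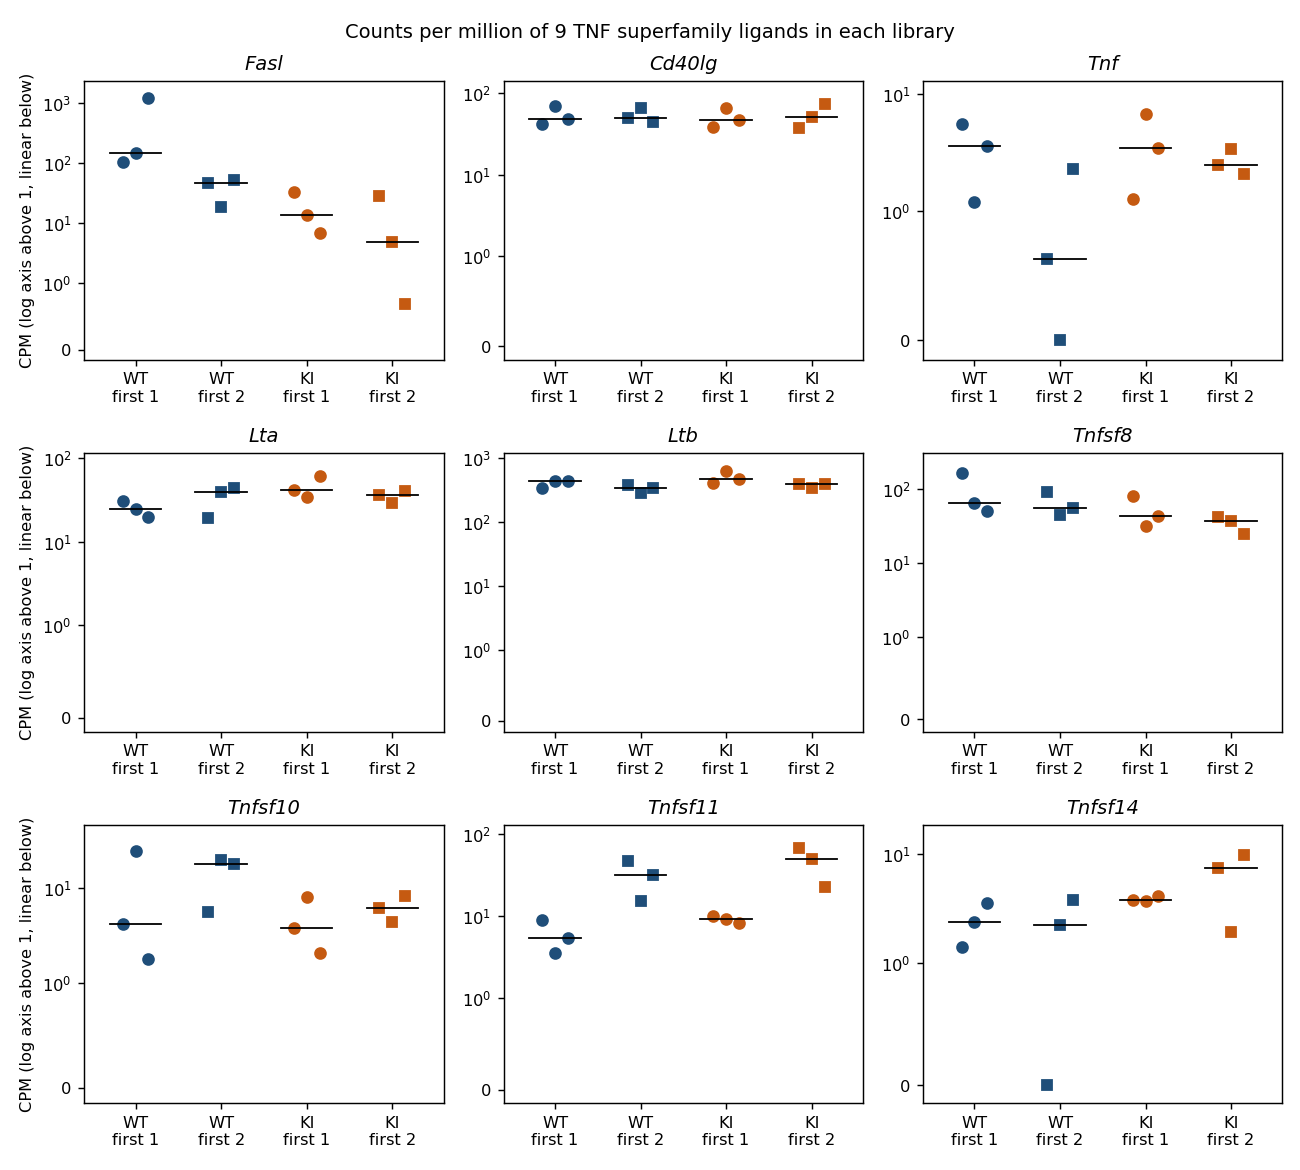
TMM-scaled CPM of each ligand gene (vertical axis, log above 1 and linear below) in every library, grouped by genotype and first title number, with 3 libraries per group and a bar at their median. Fasl lies lower in KI than in WT at first number 1, and Tnfsf11 is higher at first number 2 in both genotypes.

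Of the 9 members, 6 passed the filter on low counts, and Fasl, as said, was not tested between the genotypes. Among the other 5, 0 were called, and 2 of all 7542 genes tested (0.0265%) were. Both were higher in KI, so Pdcd1, lower in KI without overlap, was not among them. A gene without a call may therefore still differ between the genotypes. At an unadjusted p under 0.05, only Tnfsf8 passed, against 407 of all genes (5.4%). DESeq2 called 0 of these 5 and 11 of all 7542 genes, and limma-voom 0 of them and 1 of all 7542. Without WT 1-3, edgeR called 0 of them and 0 of all 7799 genes then tested.

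Tnfsf8 encodes the ligand of CD30, a receptor of activated lymphocytes. Its level in WT was 164, 64.9 and 50.1 CPM in 1-1, 1-2 and 1-3, and 92.2, 44.4 and 55.9 CPM in 2-1, 2-2 and 2-3. In KI it was 82.0, 31.6 and 44.0 CPM in 1-1, 1-2 and 1-3, and 42.4, 37.5 and 24.9 CPM in 2-1, 2-2 and 2-3. All KI libraries but 1-1 lay below every WT library. WT exceeded KI in 32 of 36 pairs. The log2 difference, KI minus WT, was -0.85 (SE 0.36), and edgeR's adjusted p over all genes was 0.917 (unadjusted 0.0272). Without WT 1-3 it was -0.94 (SE 0.37; edgeR adjusted p 0.972), and without WT 1-1, the highest library, it was -0.49 (unadjusted edgeR p 0.161). The unadjusted edgeR p was also above 0.05 without WT 2-1 (0.0517), KI 1-2 (0.0570) or KI 2-3 (0.0650), and at first number 1 alone (0.0964). On FPKM it was 0.0660 and 0.0674 with pseudocounts of 1 and 0.1, by limma. Other settings gave smaller unadjusted edgeR p: 0.0125 and 0.0075 with blocks by first number and by both numbers, and 0.0053 without KI 1-1. At first number 2 alone it was 0.0451, with WT higher in 9 of 9 pairs, against 7 of 9 at first number 1. The adjusted p was 0.436 or more in every alternative.

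Cd40lg, the B cell help signal, had nearly the same level in both genotypes, averaging 53.7 ± 12.1 CPM (WT) against 52.5 ± 15.0 CPM (KI; SD, n = 6 for both). It ran from 41.9 to 70.8 CPM in WT (median 48.9) and from 37.4 to 74.8 CPM in KI (median 49.2), so the ranges overlapped almost wholly. The log2 difference was -0.03 (SE 0.28, edgeR adjusted p 0.995), and -0.06 without WT 1-3. Its sign depended on the libraries and the filter used.

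The lymphotoxins and Tnfsf11 overlapped between the genotypes, and none of them passed. Ltb ran from 282 to 438 CPM in WT (median 360) and from 336 to 634 CPM in KI (median 400). Lta ran from 19.4 to 43.8 CPM in WT (median 27.7) and from 29.2 to 61.2 CPM in KI (median 38.5). Both pairs of ranges overlapped, although at first number 1 all 3 KI libraries lay above all 3 WT libraries for Lta. At first number 2 WT was higher in 5 of 9 pairs for Lta, and its log2 difference was 0.05, against 0.84 at first number 1. Over all libraries the log2 differences were 0.25 (SE 0.19) for Ltb and 0.44 (SE 0.34) for Lta, each with an edgeR adjusted p of 0.938. Without WT 1-3 they were 0.30 and 0.35. Single KI libraries lowered both, to 0.12 for Ltb without KI 1-2 and 0.29 for Lta without KI 1-3. Tnfsf11 differed by 0.53 (SE 0.63, edgeR adjusted p 0.948), and by 0.35 without WT 1-3, 0.06 without KI 2-1 and 1.05 without WT 2-1.

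The 3 members below the filter had few reads. Tnf, the founding cytokine of the family, had 0 to 8 counts per library in WT and 2 to 11 in KI. Its 0 in WT 2-2 allows up to 1.78 CPM of unscaled gene counts (3 counts of the total). Tnfsf10, the ligand of death receptor DR5 in mice, had 1 to 35 counts in WT and 3 to 13 in KI. Tnfsf14, which binds HVEM and the lymphotoxin beta receptor, had 0 to 5 counts in WT and 4 to 14 in KI. The 0 of Tnfsf14 in WT 2-1 allows up to 1.95 CPM. Its CPM values were 1.40, 2.36 and 3.58 in WT 1-1, 1-2 and 1-3, and 0, 2.25 and 3.77 in WT 2-1, 2-2 and 2-3. In KI they were 3.81, 3.72 and 4.12 in 1-1, 1-2 and 1-3, and 7.48, 1.95 and 9.69 in 2-1, 2-2 and 2-3. The genotypes overlapped through KI 2-2 and WT 2-3.

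These 3 were tested by exact two-sided permutation of log2(CPM + 1), which understates changes of low genes, in 6 comparisons whose smallest possible p was 0.0022. KI minus WT was 0.96 for Tnfsf14 (exact permutation p 0.0519), 0.57 for Tnf (0.251) and -0.72 for Tnfsf10 (0.240). None passed 0.05. Tnfsf10 passed the filter on counts when certain single libraries were left out. Without WT 1-3 its log2 difference was -1.39 (SE 0.63, edgeR unadjusted p 0.0388, adjusted p 0.972). Without WT 1-1 it was -1.36 (unadjusted edgeR p 0.0498) and without WT 2-1 -1.33 (0.0577). Without KI 1-1, 1-3, 2-1 or 2-2 it was -1.23 to -1.01, with unadjusted edgeR p of 0.0945 to 0.143. Tnfsf14 gave an exact permutation p of 0.0238 on log2(FPKM + 1), 0.0476 without WT 1-3, 0.0390 without WT 2-3 and 0.00866 without KI 2-2. Its call thus depended on the scale and on single libraries, at counts near the limit of 3 reads.

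**Figure D4:**
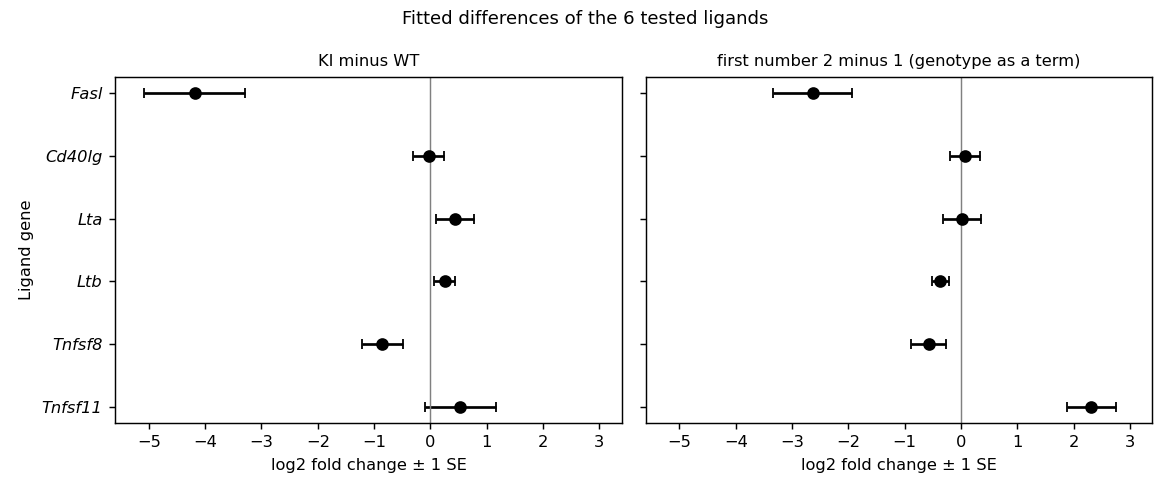
Fitted log2 fold changes (horizontal axis, point, with bars of 1 SE) of the 6 ligands that passed the filter, KI minus WT on the left and first number 2 minus 1 with genotype as a term on the right. Fasl lies at -4.19 and -2.63, Tnfsf11 at 0.53 and 2.32, and the other 4 within 1 of 0 in both panels.

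The first title number went with a clear difference in Tnfsf11, which was higher at number 2 in both genotypes. Tnfsf11 encodes RANK ligand, known for osteoclast formation and lymph node development and made by activated T cells. In WT it read 9.07, 3.54 and 5.37 CPM at first number 1 and 47.1, 15.2 and 31.7 CPM at first number 2. In KI it read 10.2, 9.30 and 8.25 CPM at first number 1 and 68.6, 49.2 and 22.8 CPM at first number 2. Every library with number 2 lay above every library with number 1, in 36 of 36 pairs. Means were 7.61 ± 2.59 CPM and 39.1 ± 19.6 CPM (SD, n = 6 each). The log2 difference, number 2 minus number 1 with genotype as a term, was 2.32 (SE 0.43, edgeR adjusted p 0.00108). Without WT 1-3 it was 2.29 (SE 0.46, edgeR adjusted p 0.00185). In WT alone it was 2.28, with an edgeR adjusted p of 0.0760. Tnfsf11 counts were 3 to 16 at number 1 and 27 to 101 at number 2. Of all 7542 genes, 1208 (16.0%) were called in this test, 639 of them higher at number 2. The cytotoxic markers described above were also higher at number 2, with 4 of the 6 tested called, and their part in the Tnfsf11 values was not tested. What the first number stands for is not stated, so no condition can be named for this difference.

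Of the 5 tested members other than Fasl, 1 (Tnfsf11) was called between first numbers, beside 16.0% of all genes. Fasl was lower at number 2, with a log2 difference of -2.63 (SE 0.70), and -1.30 (SE 0.53) without WT 1-3. These values carry no test, since the level in WT 1-3 was part of why Fasl was selected. In WT all 3 libraries with number 2 lay below all 3 with number 1. In KI, which does not hold WT 1-3, the difference was -0.79 and the first numbers overlapped.

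The other 4 did not pass between first numbers. Ltb was 455 ± 97.5 CPM at number 1 and 351 ± 41.1 CPM at number 2 (SD, n = 6 each), higher at number 1 in 33 of 36 pairs. Its log2 difference was -0.37 (SE 0.15), for which edgeR's adjusted p was 0.101, and 0.1503 without WT 1-3. Tnfsf8 differed by -0.58 (SE 0.32, edgeR adjusted p 0.227). Cd40lg differed by 0.07 (SE 0.27) and Lta by 0.02 (SE 0.33), with edgeR adjusted p of 0.898 and 0.979. Below the filter, the exact permutation p was 0.156 for Tnf (-0.73), 0.245 for Tnfsf10 (0.71) and 0.989 for Tnfsf14 (-0.01). Tnfsf10 gave 1.13 (exact permutation p 0.0346) without WT 1-2.

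Whether a genotype difference itself differed between first numbers was tested as an interaction. Of 7542 genes, 0 were called (0%), and 544 had an unadjusted p under 0.05. DESeq2 called 7 of 7542 genes and 0 of the 5 members tested. Their interaction values on the log2 scale ran from -0.80 for Lta (edgeR adjusted p 0.868) to 0.12 for Cd40lg (0.987), with 0.01 for Tnfsf11 (SE 1.31, 0.999). For Fasl the interaction value was 2.65 (SE 1.21), given without a test for the reason above, and without WT 1-3 it was 0.79 (SE 1.07).

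The other 9 ligands of the superfamily had few reads or none, and 0 of them passed the filter. Tnfsf13b (BAFF), a B cell survival factor, had 0 to 25 counts per library, Tnfsf4 (OX40 ligand) 0 to 11, Tnfsf9 0 to 10, Tnfsf15 0 to 9 and Cd70 0 to 7. Eda, Tnfsf12, Tnfsf13 and Tnfsf18 had 0 counts in all libraries, which allows up to 4.18 CPM of unscaled gene counts in the smallest library. The table also lists a joined entry for Tnfsf12 and Tnfsf13, at 0 too, and reads shared between such entries can be set aside as ambiguous.

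Of the 10 receptors of the members, 3 passed the filter: Fas, Tnfrsf1a and Tnfrsf1b, the last 2 being the TNF receptors. None was called by genotype or first number, beside 0.0265% and 16.0% of all genes. Fas averaged 38.6 ± 23.6 CPM (WT) against 24.7 ± 6.01 CPM (KI; SD, n = 6 for both), a log2 difference of -0.64 (SE 0.41, edgeR adjusted p 0.938). Tnfrsf1a averaged 18.2 ± 6.54 CPM (WT) against 30.3 ± 12.6 CPM (KI), and Tnfrsf1b 16.4 ± 4.91 CPM against 29.1 ± 11.1 CPM (SD, n = 6 throughout). Their log2 differences were 0.74 (SE 0.40, edgeR adjusted p 0.919) and 0.83 (SE 0.40, edgeR adjusted p 0.918). The receptors that B cells and stroma carry were near 0, with 0 to 5 counts of Cd40, 0 or 1 of Ltbr and 0 of Tnfrsf11b. Tnfrsf11a, the receptor for the Tnfsf11 product, had 0 to 7 counts.

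Of 18 other TNF receptor superfamily genes, 7 were tested and 0 called in either comparison. Of all genes, 0.0265% were called by genotype and 16.0% by first number. Their median log2 difference was 0.28 for KI minus WT, against 0.02 over all genes. By genotype 3 of the 7 had an unadjusted edgeR p under 0.05, against 5.4% of all genes. These were Tnfrsf18 (0.72, p 0.00512), Cd27 (0.38, p 0.0343) and Tnfrsf26 (-1.11, p 0.0102). Among 25 signalling genes below the receptors, 24 were tested. By genotype 0 were called (median 0.12). By first number 4 were called, 2 in each direction (median 0.02, against 0.01 over all genes). That share is near the 16.0% of all genes, so nothing is read from it about the list. Birc3 and Birc2, which encode ubiquitin ligases of TNF receptor complexes, rose by log2 values of 1.70 and 1.19 at number 2 (edgeR adjusted p 0.00306 and 0.0479). Traf1, an adaptor induced by NF-kappaB, fell by 1.22 on the log2 scale (edgeR adjusted p 6.9e-05), from 287 ± 49.2 to 122 ± 14.8 CPM (SD, n = 6 each). Faim, an inhibitor of Fas-mediated apoptosis, fell by 0.92 on the log2 scale (edgeR adjusted p 0.0207).

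Ligand-processing enzymes and Fasl regulators held 1 called gene between them by first number, where 16.0% of all genes were called, and 0 by genotype. Of 6 sheddases and processing enzymes 5 were tested, and Adam10, which can cleave Fas ligand from the cell surface, rose by 1.06 on the log2 scale at number 2 (edgeR adjusted p 0.00781). It was 72.6 ± 20.1 CPM at number 1 and 149 ± 55.7 CPM at number 2 (SD, n = 6 each). Of 16 regulators reported to act on Fasl transcription 9 were tested, and 0 were called by genotype (median -0.11) or by first number (median -0.21). Nfatc1 alone among them had an unadjusted p under 0.05 by genotype, at 0.46 (SE 0.18, edgeR adjusted p 0.914), higher in KI.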

How the data were processed

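Each library's genotype and numbers came from the labels. The authors deposited raw read counts per gene symbol (25793 genes and 5 summary entries, which were left out of library totals) and FPKM values (25819 entries, of which 27 repeated names were summed). Per the submitters' processing notes, CASAVA, TopHat2, Cufflinks, HTSeq and DESeq2 were used with build mm9, with no versions or roles. Annotation and strand use were not given in the sources used here. Amplification from few cells can add noise between libraries.

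Tests on counts used edgeR 4.0.16 under R 4.3.3 (filterByExpr, 7542 genes, TMM, glmQLFit, glmQLFTest), with Benjamini-Hochberg adjusted p under 0.05 as the threshold. CPM were scaled by TMM. Correlations used a prior count of 2. SEs are the log2 difference over the root of F. Members below the filter were compared by exact permutation over 924 splits. Settings tried besides were DESeq2 1.42.0, limma-voom (limma 3.58.1), the newer edgeR method, upper-quartile and RLE scaling, a minimum mean of 50 counts, no filter, FPKM with pseudocounts of 1 and 0.1, blocks and subsets of libraries. Fits were also run on simulated data, whose outcome is not given here and backs no claim. Over 30 pairs of libraries of 1 genotype, chi-square per degree of freedom was 8.58 to 37.0, so none agreed within sampling noise.

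Members and lists were chosen with earlier results of these data known. The text names all members, Pdcd1, receptors of the members, up to 4 called genes per list and direction, and the 5 genes most correlated with Fasl. Other names illustrate a list, were chosen after their values were seen, and carry no claim.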

Additional observations from a re-analysis of the deposited data

Results flagged for a closer look

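Dixon's ratio divides the distance to the nearest library by the whole range. Among 18 sets of 6 libraries (9 ligands in 2 genotypes), 2 held a library far from the other 5 by this ratio. At 1 in 20, 0.9 are expected by chance if CPM are normally distributed, which was not checked. Fasl read 1197 CPM in WT 1-3, from 669 reads, with a ratio of 0.891 and the nearest WT library at 146 CPM. That value was known when Fasl was selected, so the number expected by chance says nothing about it. Tnfsf8, the CD30 ligand, read 82.0 CPM in KI 1-1, from 129 reads, with a ratio of 0.666 and the nearest KI library at 44.0 CPM. In WT the highest Tnfsf8 value was also in library 1-1, at 164 CPM.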

How the results depend on the processing

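Apart from Fasl, 0 of the members tested were called by genotype under any of the 25 alternatives run. Few genes were called at all, such as 11 of 7542 with DESeq2 and 1 of 7542 with limma-voom. Among the tested members other than Fasl, 1 was called between first numbers, Tnfsf11, beside 16.0% of all genes. Fasl was selected with WT 1-3 known, so it is left out of this count. Tnfsf11 stayed called in 22 of the 23 alternatives that tested it. The exception was WT only (edgeR adjusted p 0.0760), which held fewer libraries, and the cause was not tested. A mean of at least 50 counts left out Tnfsf11, and 0 of the members tested there other than Fasl were called. The Fasl log2 difference by genotype was -1.94 at first number 2 and -2.39 with the first-number block and WT 1-3 left out (added after seeing the data), and -4.68 to -2.35 leaving out each library. Fasl ranked 2 by mean FPKM and 5 by median.

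For the replicate block, 6 pairs sharing both numbers had correlations of 0.0828 to 0.258 (mean 0.164), with 5 over 0.1. The 12 pairs sharing only the first number had a mean of 0.166, with 10 over 0.1. The 18 pairs differing in it had a mean of -0.1655, with 0 over 0.1. A shared second number added no correlation, so both numbers were not taken to pair libraries. Libraries did go together by first number, whose meaning is not given, and the main genotype fit held no block for it. Of 12 libraries, 4 were closest to the library of the other genotype with both numbers, and all 12 to one with the same first number. A block by first number gave -3.64 for Fasl and by both numbers -3.11, with 0 other members called; over all genes the first-number block called 4 against 2.

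Small values changed sign. The Tnfsf8 interaction was -0.0365, and 0.23 without WT 1-3 (added after seeing the data). Cd40lg by genotype was 0.0082 without a filter, 0.0238 and 0.024 on FPKM, 0.0339 at first number 2, and -0.16 to 0.0567 leaving out libraries. By first number Cd40lg was -0.0239 in WT and -0.067 to 0.18 leaving out libraries. Lta by first number was -0.12 with limma-voom, -0.0758 with the newer edgeR method, -0.0074 without a filter, -0.37 in KI, -0.0441 without a genotype term, and -0.11 to 0.18 leaving out libraries. Tnfsf14 by first number was 0.0778 on FPKM and -0.29 to 0.39 leaving out libraries. Depth limits Tnf, Tnfsf10 and Tnfsf14, at 0 to 35 counts.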
